A study of Mus musculus with 4 samples.

Results

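Genes of fatty acid activation, storage and beta oxidation were followed in cultured lung ILC2s, the group 2 cells among innate lymphocytes, which live in barrier tissue and make type 2 cytokines. The set holds 30 genes chosen by name for their place in the route from fatty acid uptake to oxidation or storage. Earlier results of these data were known when the choice was made. All 30 were among the 17187 genes of the deposited table, and all 30 passed the filter of a mean of 10 normalised reads that left 13010 genes for testing. The cells were sorted from the lungs of BALB/c mice and kept in culture for 18 hours. The isotype group (2 libraries) was given a control antibody, and the anti-CD226 group (2 libraries) an antibody against CD226, a costimulatory receptor. A dose of 5 µg/mL is given, with wording that does not say whether the control was dosed alike. The design text of the series describes treated mice rather than treated cultures, and a column of the deposited table names the controls PBS. The sample labels were followed. Nothing in them tells whether replicates are separate animals, pools or cultures. All p-values therefore measure no more than the spread between libraries, and this may be technical.

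A fatty acid that enters a cell is joined to coenzyme A by an acyl-CoA synthetase, and from there it can be burned or stored. For burning, the carnitine shuttle carries the chain into the mitochondrial matrix, where repeated rounds of dehydrogenation, hydration, dehydrogenation and thiolysis release acetyl-CoA, and the electrons of the first step pass through electron transfer flavoprotein to the respiratory chain. For storage, the chain is esterified to triglyceride and packed in lipid droplets coated by perilipins. Lung ILC2s are known to take up fatty acids from their surroundings, to keep them in droplets with the help of PPARγ and DGAT1, and to use them as fuel.

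The libraries held an estimated 12433729 and 17847306 reads (isotype replicates 1 and 2) and 13521433 and 12474174 reads (anti-CD226 replicates 1 and 2). All 17 ILC2 identity genes looked up were above 0 in every library. Their summed level was 225724 and 228420 normalised reads under isotype and 217227 and 207353 under anti-CD226. The largest single part was Il5, at 95010 and 97655 under isotype and 85431 and 67864 under anti-CD226 (replicates 1 and 2). A higher mean in anti-CD226 libraries was found for 9 of the 17 genes. Of 20 macrophage and monocyte genes, 12 were in the table. Their summed level was 305 and 292 normalised reads under isotype and 595 and 1940 under anti-CD226 (replicates 1 and 2). Anti-CD226 replicate 2 also stood apart by transcript length, with values given beside the fatty acid genes. No gene of 13010 reached an adjusted p below 0.05 between the groups (0% of genes tested, limma with Benjamini-Hochberg adjustment), and 308 genes (2.37%) had an unadjusted p below 0.05.

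Promoter sequences, 250 bases before to 50 bases after the start of transcription, were found for 24 of the 30 genes in RefSeq (GRCm38.p6), in 25 windows. Peroxisome proliferator-activated receptors, the lipid sensors known to act on many of these genes, bind a direct repeat of the half-site AGGTCA with 1 base between the copies. This repeat, searched on both strands as AGGNCA, 1 base of any kind and AGGNCA again, was in 0 of the 25 windows and in 0.221% of 13591 windows of all genes. Its half-site AGGTCA was in 4 of 25 windows (Acadm, Acadvl, Cpt1a and Plin2) and in 12.7% of all windows. Both windows below are printed because they belong to the genes of highest level in storage and in the carnitine shuttle and hold a half-site, which lies on the opposite strand and is written in capitals as TGACCT. It starts 218 bases before the Plin2 start (chr4:86670010-86670309, minus strand) and 94 bases before the Cpt1a start (chr19:3323051-3323350, plus strand).
Plin2: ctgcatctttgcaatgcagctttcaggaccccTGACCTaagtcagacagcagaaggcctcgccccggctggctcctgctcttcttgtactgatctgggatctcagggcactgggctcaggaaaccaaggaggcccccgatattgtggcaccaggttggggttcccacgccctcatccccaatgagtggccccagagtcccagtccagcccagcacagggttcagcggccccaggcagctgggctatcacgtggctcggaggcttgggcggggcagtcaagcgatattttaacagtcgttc
Cpt1a: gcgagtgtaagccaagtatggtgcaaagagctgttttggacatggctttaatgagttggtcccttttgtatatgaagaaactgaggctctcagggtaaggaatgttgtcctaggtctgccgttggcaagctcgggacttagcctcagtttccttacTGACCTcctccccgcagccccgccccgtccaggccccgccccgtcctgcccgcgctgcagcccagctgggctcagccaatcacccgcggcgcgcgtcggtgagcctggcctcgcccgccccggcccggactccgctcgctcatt
The third window is that of Hadhb (chr5:30155003-30155302, plus strand), shown because its neighbour Hadha starts nearby in the opposite direction. Their RefSeq starts lie 273 bases apart, so that by RefSeq the genes of both subunits of 1 enzyme share their upstream sequence. Capitals mark the 228 bases that also lie in the Hadha window (chr5:30154931-30155230, minus strand). Gene positions given further on are from GENCODE, whose starts differ. There Hadha reaches to 30155162, inside the capitals, and Cpt1a begins at 3322334, before its window.
Hadhb: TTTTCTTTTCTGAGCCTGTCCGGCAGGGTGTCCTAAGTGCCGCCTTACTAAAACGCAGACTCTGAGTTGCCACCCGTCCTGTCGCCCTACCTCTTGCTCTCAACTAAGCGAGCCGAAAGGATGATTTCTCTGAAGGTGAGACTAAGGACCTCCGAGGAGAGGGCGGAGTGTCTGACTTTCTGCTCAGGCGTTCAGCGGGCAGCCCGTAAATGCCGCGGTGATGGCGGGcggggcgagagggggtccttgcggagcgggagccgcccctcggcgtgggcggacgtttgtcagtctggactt
The GC box GGGCGG, a motif looked up after the sequences had been seen, was found on either strand in 20 of the 25 windows and in 60.6% of all windows. A match describes the letters only, and no match says only that they are not in the window.

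Between the groups, no difference in a fatty acid gene passed the test, and most of the differences were small. Of the 30 genes, 10 were higher and 20 lower in anti-CD226 libraries, with a median log2 difference of -0.04, against 51.1% higher and a median of 0.01 over all genes tested. None of the 30 was called, none had an unadjusted p below 0.05, and the smallest was 0.109 for Slc27a4. Adjusted p ran from 0.982 to 0.999 (limma with Benjamini-Hochberg adjustment over 13010 genes). The groups did not overlap for 7 of the 30 genes (23.3%), beside 26.8% of all genes tested. Of these, 1 was higher in anti-CD226 libraries (Acadm, beside 13.8% of all genes) and 6 were lower (Slc27a4, Crat, Acadl, Acads, Acaa1a and Plin2, beside 13% of all genes). The share over both directions lies near that of all genes. In a bulk library, fewer cells that express a gene and less RNA per cell cannot be told apart.

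The precision of the comparison can be read from its intervals. The 95% interval of the log2 difference included 0 for all 30 genes. It lay within a 2-fold change in either direction for 29 of them, all but Ppard, and within a 1.5-fold change for 17. Standard errors ran from 0.15 to 0.25 on the log2 scale, apart from 0.59 for Ppard, which had few reads. The summed level of the 30 genes was 0.334% of the total in both isotype libraries and 0.337% and 0.313% under anti-CD226 (replicates 1 and 2). With 2 libraries per group the smallest two-sided p of an exact permutation test is 0.333, and tests of single genes are therefore limma's.

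**Figure D1:**
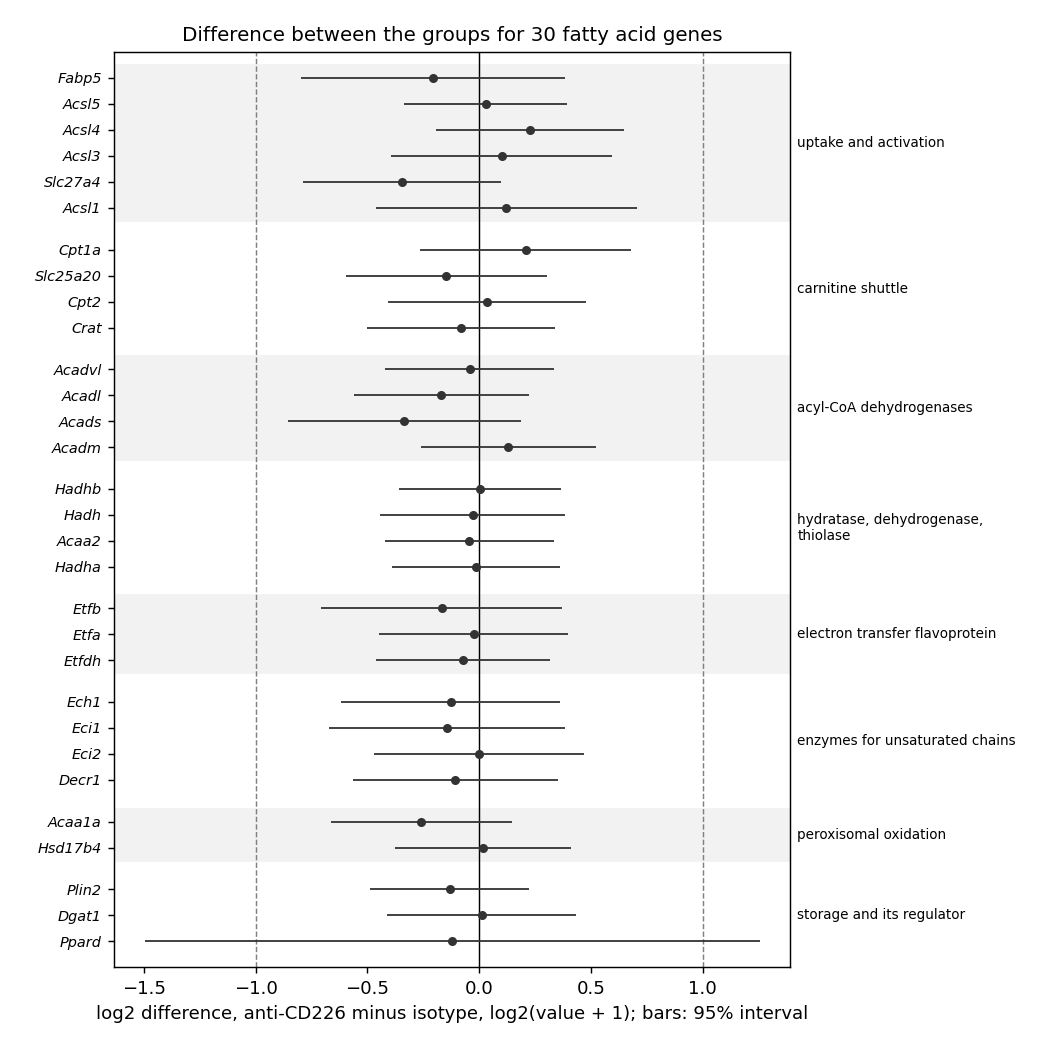
Log2 difference between anti-CD226 and isotype libraries on the log2(value + 1) scale (x axis) for the 30 genes, grouped by role; points are estimates of the limma fit over 2 against 2 libraries, bars are 95% intervals, and dashed lines mark a 2-fold change. Every interval crosses 0, and that of Ppard alone crosses a dashed line.

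In normalised reads per kilobase of the longest coding transcript, most of the set stood high among the genes of these cells. Of the 30 genes, 25 were above the median of 12737 ranked genes (121 reads per kilobase), 17 were above 75% of the ranked genes and 9 above 90%. Plin2 had the highest mean level, 3803 reads per kilobase, and Ppard the lowest, 4.29. The 4 libraries lay close together for most genes beside the differences between genes. Levels per kilobase depend on the transcript length used: with the union of all exons as length, Plin2 was at 2044 reads per kilobase and its range overlapped that of Etfb, and Fabp5 dropped from rank 3 to rank 10 of the 30.

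**Figure D2:**
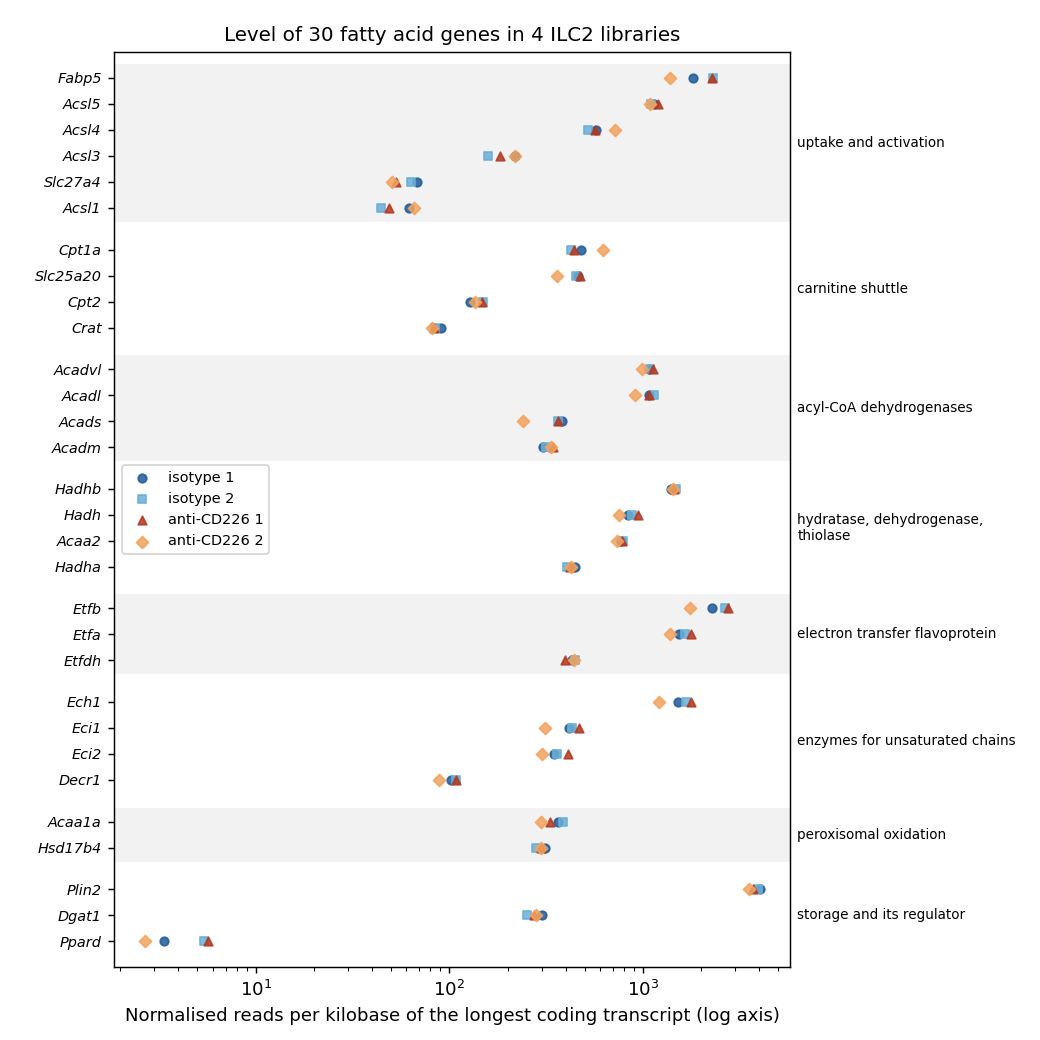
Level of each of the 30 genes in normalised reads per kilobase of the longest coding transcript (x axis, log scale) in the 4 libraries, 1 symbol per library, grouped by role. Plin2 stands highest with a mean of 3803 and Ppard lowest with 4.29, and the symbols of the groups intermix for most genes.

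Uptake and activation was covered by a fatty acid binding protein, a transporter and the long-chain acyl-CoA synthetases. Fabp5, a carrier of fatty acids in the cytosol (chromosome 3, 10012548 to 10016607, GRCm38 as for all positions here), was at 1798 and 2265 normalised reads under isotype and at 2244 and 1363 under anti-CD226. Anti-CD226 replicate 1 thus lay beside the higher isotype library, while replicate 2 lay below all others. The log2 difference was -0.21 (SE 0.25, n = 2 per group). It turned on these libraries: it was 0.15 without anti-CD226 replicate 2, and -0.57 with an adjusted p of 0.0273 (limma) without anti-CD226 replicate 1, a fit in which 12.6% of all genes were called.

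Slc27a4, which encodes the fatty acid transport protein FATP4 (chromosome 2, 29802634 to 29817522), was at 277 and 259 normalised reads under isotype and at 215 and 206 under anti-CD226. Both anti-CD226 libraries lay below both isotype libraries, and the spread within each group was small, with means of 268 ± 13.1 and 211 ± 6.42 (SD, n = 2). The log2 difference was -0.35 (SE 0.19) with an adjusted p of 0.982 (limma), and it lay between -0.40 and -0.30 when any 1 library was left out.

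Of the acyl-CoA synthetases, the enzymes that activate long chains, Acsl4 had the smallest p among the genes of higher mean in anti-CD226 libraries. Acsl4, known for its preference for arachidonic acid (X chromosome, 142317993 to 142390535), was at 3009 and 2761 normalised reads under isotype and at 2990 and 3810 under anti-CD226. Only anti-CD226 replicate 2 stood above the isotype range, and the log2 difference of 0.23 (SE 0.18) became 0.05 without it. Acsl5 had means of 4743 ± 125 and 4847 ± 340 normalised reads (SD, n = 2) in isotype and anti-CD226, Acsl3 748 ± 168 and 795 ± 100, and Acsl1 207 ± 48.3 and 224 ± 46.7. The groups overlapped for all of them.

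The order of the synthetases was the same in every library. In reads per kilobase, Acsl5 was at 1130, Acsl4 at 595, Acsl3 at 195 and Acsl1 at 55.3 on average, with no overlap between neighbours in this order, also with the union of exons as length. The brain form Acsl6 was near the floor, with 1 to 9 estimated reads in a library. Acsl5 over Acsl4, as a ratio of reads per kilobase, was 2.0 and 2.1 under isotype and 2.1 and 1.5 under anti-CD226 (replicates 1 and 2).

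The carnitine shuttle begins with carnitine palmitoyltransferase 1 at the outer mitochondrial membrane, known as the rate-limiting step of long-chain oxidation. Cpt1a, its liver and leukocyte form (chromosome 19, 3322334 to 3385733), was at 2075 and 1846 normalised reads under isotype and at 1913 and 2674 under anti-CD226. The high value belonged to anti-CD226 replicate 2, and replicate 1 lay within the isotype range. The log2 difference was 0.21 (SE 0.20) and became -0.03 without anti-CD226 replicate 2.

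The other steps of the shuttle were at similar levels in both groups. Slc25a20, the carrier that exchanges acylcarnitine for carnitine across the inner membrane, had means of 815 ± 8.56 normalised reads in isotype and 743 ± 144 in anti-CD226 (SD, n = 2). For Cpt2, which moves the chain back to coenzyme A in the matrix, the means were 328 ± 34.8 and 336 ± 21.5. Crat, the transferase for short chains and acetyl groups (chromosome 2, 30400471 to 30415813), was at 385 and 355 normalised reads under isotype and at 354 and 344 under anti-CD226. Its groups were apart by less than 1 normalised read, and the log2 difference was -0.08 (SE 0.18). In reads per kilobase, Cpt1a (493) and Slc25a20 (437) overlapped, and Cpt2 (140) and Crat (85.1) followed. With the union of exons, Cpt1a stood apart at 278 and Slc25a20 (161) overlapped Cpt2 (139) instead.

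The acyl-CoA dehydrogenases divide the first oxidation step by chain length. Acadvl, for very long chains (chromosome 11, 70010183 to 70015411), was at 2339 and 2369 normalised reads under isotype and at 2442 and 2141 under anti-CD226. Acadl, for long chains (chromosome 1, 66830839 to 66863277), was at 2066 and 2196 under isotype and at 2055 and 1747 under anti-CD226. For Acadvl the anti-CD226 libraries lay on either side of both isotype libraries, with a log2 difference of -0.04 (SE 0.16). For Acadl they did not overlap, but anti-CD226 replicate 1 lay only just under the lower isotype library; the log2 difference was -0.17 (SE 0.17) and became -0.05 without anti-CD226 replicate 2.

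The forms for shorter chains had differences of opposite sign. Acadm, for medium chains (chromosome 3, 153922357 to 153944632), was at 623 and 649 normalised reads under isotype and at 704 and 689 under anti-CD226. Acads, for short chains (chromosome 5, 115110299 to 115119346), was at 715 and 680 under isotype and at 678 and 451 under anti-CD226. Acadm was thus the only gene of the 30 with both anti-CD226 libraries above both isotype libraries, with a log2 difference of 0.13 (SE 0.17) that stayed between 0.10 and 0.16 when any 1 library was left out. Acads was low in anti-CD226 replicate 2 alone. Its log2 difference of -0.33 (SE 0.23) was -0.04 without that library, and -0.63 with an adjusted p of 0.0223 (limma) without anti-CD226 replicate 1, the fit that called 12.6% of all genes. Per kilobase, Acadvl (1071 reads) and Acadl (1052) overlapped above Acads (337) and Acadm (326).

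The next reactions are carried out for long chains by the mitochondrial trifunctional protein, whose subunits are encoded by Hadha and Hadhb. Hadhb (chromosome 5, 30155248 to 30184593), whose RefSeq window is printed above, was at 2862 and 3018 normalised reads under isotype and at 2972 and 2929 under anti-CD226. Both anti-CD226 libraries lay between the isotype libraries, and the log2 difference was 0.01 (SE 0.16). Hadha, the hydratase and dehydrogenase subunit, had means of 1715 ± 117 and 1699 ± 26.1 normalised reads (SD, n = 2). The ratio of Hadha to Hadhb in normalised reads per kilobase was 0.320 and 0.276 under isotype and 0.288 and 0.299 under anti-CD226, so that the libraries of both groups intermixed.

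Hadh, the dehydrogenase for shorter hydroxyacyl chains, had means of 1543 ± 53.5 normalised reads in isotype and 1521 ± 238 in anti-CD226 (SD, n = 2). Acaa2, the thiolase of the last step, had 1183 ± 15.8 and 1147 ± 53.2. All 4 genes of these steps had absolute log2 differences no larger than that of Acaa2, -0.04 (SE 0.16). Per kilobase of the longest transcript, Hadhb (1438 reads) was followed by Hadh (856), Acaa2 (768) and Hadha (425). The union of exons put Acaa2 first at 768, before Hadhb at 447.

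Electron transfer flavoprotein takes the electrons of the acyl-CoA dehydrogenases and hands them to its oxidoreductase, encoded by Etfdh. Etfb (chromosome 7, 43444083 to 43457800), the gene of the beta subunit, was at 2033 and 2361 normalised reads under isotype and at 2443 and 1558 under anti-CD226. The anti-CD226 libraries were the highest and the lowest of the 4. The log2 difference was -0.17 (SE 0.23), 0.16 without anti-CD226 replicate 2 and -0.49 with an adjusted p of 0.0515 (limma) without anti-CD226 replicate 1. Etfa had means of 2222 ± 105 and 2201 ± 383 normalised reads, and Etfdh 1046 ± 28.4 and 995 ± 76.5 (SD, n = 2). In reads per kilobase, Etfb (2350) and Etfa (1589) overlapped and Etfdh (429) was below them. The ratio of Etfa to Etfb per kilobase was 0.678 and 0.624 under isotype and 0.649 and 0.795 under anti-CD226 (replicates 1 and 2).

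Unsaturated chains need auxiliary enzymes that move or reduce double bonds. Ech1, a dienoyl-CoA isomerase (chromosome 7, 28825217 to 28832247), was at 1929 and 2125 normalised reads under isotype and at 2232 and 1539 under anti-CD226. As with Etfb, the anti-CD226 libraries enclosed the isotype libraries, and the log2 difference was -0.13 (SE 0.21). Eci1, an enoyl-CoA isomerase, had means of 480 ± 14.8 and 443 ± 125 normalised reads, Eci2, an isomerase found in mitochondria and peroxisomes, 617 ± 16.5 and 624 ± 135, and Decr1, the dienoyl-CoA reductase, 311 ± 13.4 and 290 ± 41.0 (SD, n = 2). For all 4 of these genes anti-CD226 replicate 2 was the lowest library. Per kilobase, Ech1 (1544 reads) stood above Eci1 (406) and Eci2 (356), which overlapped, and Decr1 (102) was lowest.

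Peroxisomes shorten chains that are too long or branched for mitochondria. Acaa1a, the peroxisomal thiolase (chromosome 9, 119339676 to 119350299), was at 642 and 685 normalised reads under isotype and at 584 and 527 under anti-CD226. Both anti-CD226 libraries were below both isotype libraries, with a log2 difference of -0.26 (SE 0.17), which lay between -0.33 and -0.18 when any 1 library was left out. This value is uncertain for 2 reasons. Acaa1a has a near-identical copy, Acaa1b, at 26.1 and 37.1 normalised reads under isotype and 23.8 and 7.72 under anti-CD226, between which reads could be split. Its exons also overlap those of Myd88 on the other strand (mean 1484 normalised reads), and use of strand in counting is not given in the sources used here. Hsd17b4, the bifunctional enzyme of the middle steps, had means of 794 ± 60.5 and 802 ± 0.553 normalised reads (SD, n = 2). Acaa1a (346 reads per kilobase) and Hsd17b4 (297) overlapped per kilobase, and the union of exons reversed their order.

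The same limit of strand holds for other genes of the set. Exons of 10 of the 30 genes overlap another gene, for 8 of them on the opposite strand. Those with a well-expressed partner are Acsl5 with Zdhhc6 (mean 1306 normalised reads), Crat with Dolpp1 (604), Acadvl with Dvl2 (362) and Etfdh with 4930579G24Rik (857).

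Storage was represented by Plin2, Dgat1 and the regulator Ppard. Plin2, the droplet coat protein of most cells outside fat (chromosome 4, 86648386 to 86670060), was at 7570 and 7443 normalised reads under isotype and at 7017 and 6689 under anti-CD226. Both anti-CD226 libraries were below both isotype libraries, with a log2 difference of -0.13 (SE 0.15) that lay between -0.17 and -0.10 when any 1 library was left out. Dgat1, which makes triglyceride from diacylglycerol, had means of 522 ± 63.8 and 524 ± 6.43 normalised reads (SD, n = 2). Ppard, a nuclear receptor for fatty acids, rested on 10 and 23 estimated reads under isotype and 18 and 8 under anti-CD226. Its interval, from -1.49 to 1.26 on the log2 scale, does not exclude a 2-fold difference in either direction.

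Levels were also set beside those of related genes; these families were chosen after the values had been seen. The main form of each family was the same in all 4 libraries. Cpt1a was at 493 reads per kilobase on average, while Cpt1c, the brain form, was at 3.79 and Cpt1b, the muscle form, at 1.36. The nuclear receptor Pparg, the main regulator of lipid storage, was at 1259 reads per kilobase, where Ppard was at 4.29, and the ratio of Pparg to Ppard lay between 212 and 490. Plin2 was 21.7 to 26.6 times as high as Plin3, another droplet coat protein, per kilobase in the 4 libraries, with the lowest ratio in anti-CD226 replicate 2. Dgat1 (277 reads per kilobase) was 1.93 to 2.33 times as high as Dgat2 (134), the second enzyme of the same reaction, and both anti-CD226 ratios, 2.33 and 2.11, were above the isotype ratios of 1.94 and 1.93.

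**Figure D3:**
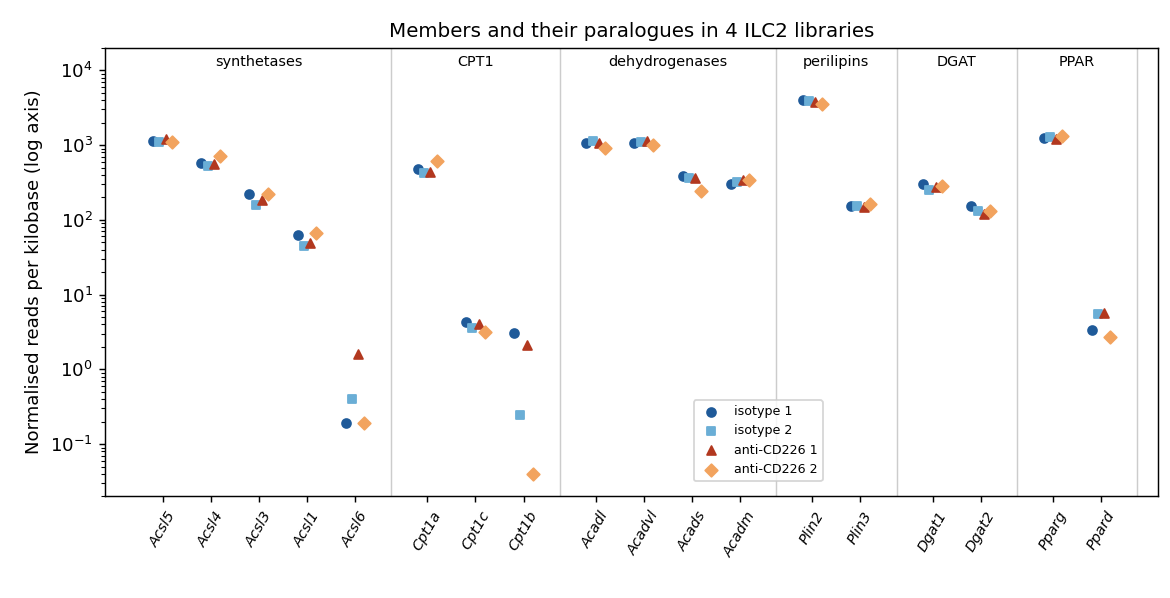
Normalised reads per kilobase of the longest coding transcript (y axis, log scale) in the 4 libraries for families of related genes, 1 symbol per library. Cpt1a at 493 stands far above Cpt1c and Cpt1b, Plin2 at 3803 above Plin3 at 154, and Pparg at 1259 above Ppard at 4.29, in every library.

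The other genes of these routes were taken from 5 lists with 112 names, of which 96 were in the table and 88 were tested. None was called, 34 were higher and 54 lower in anti-CD226 libraries, with a median log2 difference of -0.03, and 3 had an unadjusted p below 0.05 (2.37% of all genes did). The groups did not overlap for 25 of them (28.4%, near the 26.8% of all genes tested), with 8 higher (13.8% of all genes) and 17 lower (13% of all genes). Among them, the list of other mitochondrial oxidation genes had 4 of 25 higher and 21 lower, with a median of -0.16, where 51.1% of all genes tested were higher. Anti-CD226 replicate 2 was the lowest library in 17 of the 25, and without it 11 of 25 were higher and the median was -0.02. This list also holds a few enzymes known from peroxisomes, such as Decr2 and Nudt7. The peroxisomal list had 6 higher and 11 lower of 17, storage and lipolysis 11 and 10 of 21, regulators 7 and 8 of 15, and uptake and activation 6 and 4 of 10.

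The largest differences in these lists were in uptake. Cd36, a scavenger receptor and fatty acid translocase (chromosome 5, 17781690 to 17888801), was at 6.63 and 0 normalised reads under isotype and at 48.4 and 91.5 under anti-CD226, from 6 and 0 and from 47 and 83 estimated reads. Lpl, the lipase that frees fatty acids from lipoproteins (chromosome 8, 68880491 to 68907448), was at 21 and 1.55 under isotype and at 53.5 and 155 under anti-CD226. Both anti-CD226 libraries were above both isotype libraries for each gene, and the isotype libraries differed widely from each other. The log2 difference was 4.61 (SE 0.94) for Cd36 and 3.63 (SE 0.96) for Lpl, each with an adjusted p of 0.982 (limma), and with a pseudocount of 10 in place of 1 it was 2.58 and 2.44. With any 1 library left out, both passed the threshold: the adjusted p (limma) lay between 1.14e-10 and 0.0188 for Cd36 and between 8.06e-12 and 0.0426 for Lpl. The lone library of a group is then assumed to vary like the other group. These fits called 0.0922% of all genes without isotype replicate 1, 0.131% without isotype replicate 2, 12.6% without anti-CD226 replicate 1 and 0.407% without anti-CD226 replicate 2.

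Most markers of macrophages found in the table had means that differed in the same direction as Cd36 and Lpl. Of the 12 macrophage and monocyte genes in the table, 9 had a higher mean in anti-CD226 libraries. Of all genes tested, 51.1% were higher on the log2 scale. The means were lower in anti-CD226 libraries for Adgre1 (4.97 and 4.71 in isotype and anti-CD226), Apoe (12.6 and 12.3) and Csf1r (2.05 and 1.82). Mmp12 was at 34.3 and 2.32 normalised reads under isotype and at 168 and 678 under anti-CD226, and Chil3 at 19.9 and 0 and at 16.5 and 784. Mpeg1 was at 0 in both isotype replicates and at 4.12 and 16.5 under anti-CD226. Csf1r, a defining receptor, lay between 1.03 and 2.62 normalised reads, under the level of 3 reads in every library, and none of the 4 adipocyte markers was in the table. Besides Mpeg1, Chil3, Itgam, Itgax and Car4 were at 0 in at least 1 library. Their part in the result was not tested.

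Among regulators, Rxra, the partner receptor of the PPARs, was at 85.1 and 88.1 normalised reads under isotype and at 190 and 122 under anti-CD226. Esrra, a receptor known to drive genes of oxidation, was at 335 and 336 under isotype and at 283 and 197 under anti-CD226. The groups were apart in opposite directions for this pair, with log2 differences of 0.81 (SE 0.27) and -0.50 (SE 0.23) and adjusted p-values of 0.982 (limma). Each passed the threshold without 1 library: Rxra at 1.13 (adjusted p = 0.0277, limma) without anti-CD226 replicate 2, where 0.407% of all genes were called, and Esrra at -0.76 (adjusted p = 0.0145, limma) without anti-CD226 replicate 1, where 12.6% were. Ucp2, a carrier of the uncoupling protein family in the inner membrane, was abundant, at 17697 and 18685 under isotype and 20100 and 23301 under anti-CD226, a log2 difference of 0.25 (SE 0.16).

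The remaining genes that had the smallest p-values of their lists covered propionate, peroxisomal and storage steps. Acox3, a peroxisomal oxidase, had means of 306 ± 37.4 and 409 ± 43.5 normalised reads in isotype and anti-CD226 (SD, n = 2), and Pcca, a subunit of propionyl-CoA carboxylase, 307 ± 11.9 and 232 ± 21.9. Lipe, the hormone-sensitive lipase, was at 182 in both isotype replicates and at 138 and 145 under anti-CD226. Gpam, which starts glycerolipid synthesis, had a log2 difference of 0.52 (SE 0.33), and Hilpda, a droplet protein that restrains lipolysis, -0.32 (SE 0.23). The transporter gene Slc27a1 was at -0.36 (SE 0.22), the peroxisomal lyase gene Hacl1 at -0.37 (SE 0.24), Echdc2 at -0.30 (SE 0.26), Hsd17b10 at -0.26 (SE 0.22) and Acaa1b at -1.13 (SE 0.58). Without anti-CD226 replicate 1, where 12.6% of all genes were called, 4 of these passed the threshold: Gpam at 0.82, Hilpda at -0.61, Hsd17b10 at -0.55 and Acaa1b at -1.88.

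Across the fatty acid genes, the anti-CD226 libraries differed from each other. Anti-CD226 replicate 2 was the lowest of the 4 libraries in 19 of the 30 genes (63.3%, against 37.2% of all genes tested) and the highest in 3. Relative to the isotype mean, the median log2 difference of the 30 genes was 0.03 in anti-CD226 replicate 1, with 19 genes above, and -0.15 in anti-CD226 replicate 2, with 9 above. The counts by direction therefore rest on that library: without it 19 genes were higher and 11 lower with a median of 0.03, and without anti-CD226 replicate 1 the counts were 9 and 21 with a median of -0.15.

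The differences in anti-CD226 replicate 2 followed transcript length, a split examined after the values had been seen. The 15 genes of the set at or below its median length of 2047.5 bases had a median log2 difference of -0.29 in anti-CD226 replicate 2 and 0.13 in replicate 1. For the 15 longer genes these medians were -0.01 and 0.02. Over all genes tested, the medians in replicate 2 were -0.30 for 4216 shorter genes and 0.14 for 8521 longer ones. The shorter genes of the set were thus near all shorter genes, while its longer genes, at -0.01, lay lower than all longer genes. Between the groups, 2 of the 15 shorter and 8 of the 15 longer genes were higher in anti-CD226, beside 27.2% and 63.1% of all shorter and longer genes. Across genes, which share a library and are not replicates, Spearman's rho of the difference with length in replicate 2 was 0.60 for the 30 genes and 0.54 for 12737 genes. In replicate 1 it was -0.41 and -0.08.

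**Figure D4:**
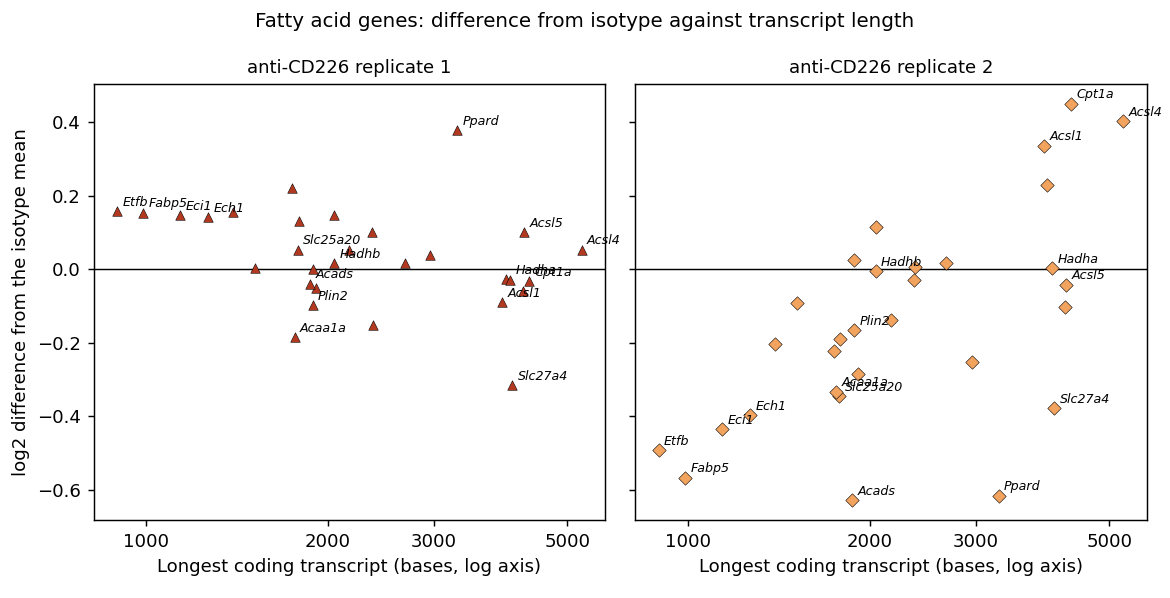
Log2 difference of each of the 30 genes from the isotype mean (y axis) against the length of its longest coding transcript (x axis, bases, log scale), in anti-CD226 replicate 1 (left) and replicate 2 (right). In replicate 2 (Spearman's rho 0.60) short genes such as Etfb, Fabp5 and Ech1 lie below 0, and 2 of the 15 shorter genes above it. Of the 15 longer genes 7 lie above 0, such as Cpt1a, Acsl4 and Acsl1, and others, such as Acsl5 and Crat, below it. In replicate 1 Etfb, Fabp5 and Ech1 lie above 0.

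In anti-CD226 replicate 2, Fabp5, Etfb, Eci1 and Ech1 were at -0.57, -0.49, -0.43 and -0.40 on the log2 scale relative to the isotype mean, and Cpt1a and Acsl4 at 0.45 and 0.40. The lowest values in this library were those of Acads, -0.63 at 1870 bases, and Ppard, -0.62 at 3277 bases. Ppard and Slc27a4, with -0.38 at 4054 bases, were long and low and did not follow the order of length. When each library's trend with length was removed, 14 of the 30 genes were higher and 16 lower, the median was -0.01 and none was called. The nuclear genes of the respiratory chain, which receives the electrons of beta oxidation, had 4 higher and 71 lower of 75 tested, with a median of 0.08 in anti-CD226 replicate 1 and -0.57 in replicate 2.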

How the data were processed

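RNA-seq of 4 ILC2 libraries was used, grouped by the treatment label, with cDNA from a low-input kit per the labels' protocols. The values the authors deposited are a normalised signal, 1 number for each gene in each library. The submitters' processing notes name build mm10, DESeq2, Partek 10.0 and STAR 2.7.8; counting tool, annotation and strand: not given in the sources used here. Between 73.5% and 75.1% of values of 0.5 to 1000 steps were whole multiples of 1 step per library (tolerance 0.02 of a step), so the values were treated as estimated reads divided by a factor, and no count model was run. Depth is the total over the step. Counting error alone sets the level of 3 reads, 2.32 to 3.32 normalised reads, and amplified reads are not independent molecules. In all, 260 gene columns were checked singly, and the others were assumed to be alike.

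Genes with a mean of 10 or more (13010) were tested with limma 3.58.1 (R 4.3.3) on log2(value + 1) values, with the variance trended on the mean, two-sided, with Benjamini-Hochberg adjustment and a threshold of 0.05; the fit has 2 residual and 5.81 prior degrees of freedom. This scale understates changes of low genes. The steps were tested on simulated data with independent noise for each gene. These data held no trend with transcript length, so they do not cover the trend seen in anti-CD226 replicate 2. Transcript lengths (97.5% of genes) and gene positions were read from GENCODE M21, whose assembly, GRCm38, is mm10. The 30 genes, the lists and the tests were chosen with earlier results of these data known. Values per library are given for genes whose groups do not overlap, the 3 smallest p in each direction and the highest level per role; of the other lists the 3 smallest p, with Cd36 and Lpl. Alternatives covered pseudocount, filter, scaling, trend, length, replicate block and leaving out each library. Genes of these routes outside the table, and protein sequences, were not analysed here.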

Additional observations from a re-analysis of the deposited data

How the results depend on the processing

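None of the 30 genes was called under another pseudocount (0.5 or 10), filter (none, or a mean of 50), scaling or variance trend, or with the length trend removed, and no other gene was. The deviations of same-numbered libraries from their group means had a correlation of -0.24 over 13010 genes. With 2 libraries per group this value cannot decide whether the replicate numbers pair the libraries. A replicate block called 20 genes, none of them among the 30, with Cd36 at an adjusted p of 1.61e-07 and Lpl at 7.99e-09 (limma). The crossed pairing, chosen after seeing the data, called 61 genes and again none of the 30. Counts of higher and lower genes were 7 and 23 with upper-quartile or quantile scaling, in place of 10 and 20. Leaving out 1 library called 12 to 1633 genes, 0 to 2 of the 30 (Fabp5 and Acads, without anti-CD226 replicate 1); 9 to 19 of the 30 were then higher and 11 to 21 lower, with medians from -0.15 to 0.027. With 8 exceptions (Slc27a4, Acsl4, Crat, Acadl, Acadm, Acads, Acaa1a and Plin2), the sign of each of the 30 genes turned in some setting. Hadhb was at -0.018, -0.0019 and -0.011 with upper-quartile, total and quantile scaling, Hsd17b4 at -0.0073 and -0.012 and Dgat1 at -0.011 and -0.0065 with upper-quartile and quantile scaling. With the length trend removed, Acsl5 was at -0.059, Hadh at 0.035, Acaa2 at 0.045, Etfa at 0.079, Etfb at 0.00036 and Eci2 at 0.067. Leave-one-out ranges that crossed 0 were Fabp5 -0.57 to 0.15, Acsl1 -0.12 to 0.36, Acsl3 -0.13 to 0.33, Acsl5 -0.042 to 0.10, Cpt1a -0.033 to 0.45, Slc25a20 -0.34 to 0.053, Cpt2 -0.073 to 0.14, Acadvl -0.14 to 0.053, Hadha -0.082 to 0.057, Hadhb -0.033 to 0.044, Hadh -0.19 to 0.13, Acaa2 -0.091 to 0.0031, Etfa -0.20 to 0.15, Etfb -0.49 to 0.16, Etfdh -0.15 to 0.0052, Eci1 -0.43 to 0.15, Eci2 -0.22 to 0.22, Decr1 -0.25 to 0.037, Ech1 -0.40 to 0.14, Hsd17b4 -0.061 to 0.094, Dgat1 -0.11 to 0.14, Ppard -0.62 to 0.38 and Hsd17b10 -0.55 to 0.044 (log2). The cause of these turns was not tested. Depth limits Ppard, which rests on 8 to 23 estimated reads in a library. Genes with under 3 reads in a library are at the floor.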
